A study of Drosophila melanogaster with 6 samples.

Results

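Aminoacyl-tRNA synthetases are the enzymes that join each amino acid to its tRNA, and the genes that encode them were followed here through maps of N6-methyladenosine (m6A) in Drosophila mRNA. Members were the listed sites whose gene name in the authors' lists was an amino acid code followed by RS, or began with Aats-, the older FlyBase prefix for these enzymes. This rule found 109 of 29142 listed sites, 4 of 6225 C-to-T sites and 105 of 22917 truncation sites, in 15 genes. All 15 carried an Aats- name, and all are called cytosolic here because none has a symbol that marks a mitochondrial enzyme. Of the 109 sites, 106 lay in exons, 4 of them C-to-T sites and 102 truncations, and 3 lay in introns.

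The maps came from S2R+ cells, an established Drosophila line of haemocyte-like cells, grown without any specific treatment. The 6 samples were 4 immunoprecipitations (IPs) of fragmented poly(A) RNA with an m6A antibody, 1 IP without crosslinking and 1 input of fragmented mRNA. The listed values were already combined over the 4 IPs, and no spread between replicates can be given. In miCLIP the antibody is crosslinked to the RNA with ultraviolet light. Reverse transcription past the remnant can leave a C-to-T change next to the methylated A, or the cDNA can end there, which gives a truncation site. Support is described by the number of IPs that shared a site, at least 2 and at most 4, and by the values from the 3 aligners used by the authors. The values of the aligners come from the same reads and are not replicates.

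Each synthetase recognises 1 amino acid and its set of tRNAs, and the enzymes fall into class I and class II, which have unrelated catalytic folds. Mitochondria translate their own mRNAs, and in animals most mitochondrial synthetases are encoded by separate nuclear genes and imported after translation; FlyBase marks these with the suffix -m. Where no such gene is known, as for glycine and lysine in many animals, 1 gene can make both enzymes through alternative starts or splicing. In higher animals several cytosolic synthetases sit together in a complex held by non-catalytic AIMP proteins. m6A in fly mRNA is written by the Mettl3-Mettl14 complex and read by YTH proteins.

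The annotation held 35 nuclear synthetase genes, 20 cytosolic and 15 mitochondrial. Genes with the suffix -m were counted as mitochondrial and all others as cytosolic. Whether any of the latter also makes a mitochondrial enzyme was not examined. The authors listed some of them under CG numbers, which the naming rule cannot see, so these were found by position. The cytosolic genes added in this way held 14 exonic sites: SerRS (seryl-tRNA synthetase, listed as CG17259) with 9, beta-PheRS (CG5706) and MetRS (CG15100) with 2 each, and LeuRS (CG33123) with 1. AspRS-m (CG31739) was the single mitochondrial gene with a site. Shares, bases and heights below refer to the 15 genes the rule named unless the wider set is stated.

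At least 1 exonic site was listed in 19 of the 20 cytosolic genes and in 1 of the 15 mitochondrial genes. Over all 13968 nuclear protein-coding genes the share with a site was 27.3%. The 20 cytosolic genes held 120 exonic sites, or 2.20 sites per kb of exon, and the 15 mitochondrial genes held 1, or 0.0258 per kb. These are counts of listed sites at any base and not of methylated A. Of the truncations in the cytosolic genes 32.2% were at A and 44.3% at T, and the mitochondrial truncation was at T. A truncation at A was found in 12 of the 20 cytosolic genes and in 0 of the 15 mitochondrial genes. Over all protein-coding genes the share with a truncation at A was 22.1%. The median exonic length was 2454 nt for the cytosolic genes and 2552 nt for the mitochondrial ones. Whether length has a part in the difference in sites was not tested. The level of each mRNA was not measured in the lists used here, and the part of transcript abundance in this difference was not tested. The cytosolic gene without a site was alpha-PheRS, which encodes the partner subunit of beta-PheRS.

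The same counts can be set out amino acid by amino acid. In all 15 amino acids that have an -m gene, the cytosolic gene or genes held more sites than the mitochondrial gene, with GluProRS counted for both glutamate and proline. This largely restates the counts above, since 14 of the 15 mitochondrial genes had no site. Some of these differences were small: arginine, cysteine and leucine each gave 1 site against 0. Alanine gave 25 sites in AlaRS and 0 in AlaRS-m, and valine gave 11 in ValRS and 0 in ValRS-m. Aspartate gave 24 in AspRS and 1 in AspRS-m. The 5 enzymes without an -m gene (GlnRS, GlyRS, HisRS, LysRS and ThrRS) all had sites, between 2 and 10 each and 29 in all, or 2.23 per kb.

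The AspRS-m site was weak in height. It was a truncation at T in the 3' UTR at chr2L:16831564 on the plus strand, in the last of 7 exons and 189 nt past the coding end, shared by 3 IPs and given by all 3 aligners. Its peak height (PH, the height of the pile-up of truncated tags as the CTK toolkit gives it) was 6.67 with Novoalign, 7 with STAR and 7 with BWA. The mean of 6.89 lay below the lower quartile of 10.5 over all exonic truncations. The height expected by chance at that place (PH0, CTK's null height) was also low at 0.226, against a median of 0.973 over all exonic truncations, so that PH was 30.5 times PH0. With a single site, part, base and strength could not be compared between compartments beyond these values.

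**Figure D1:**
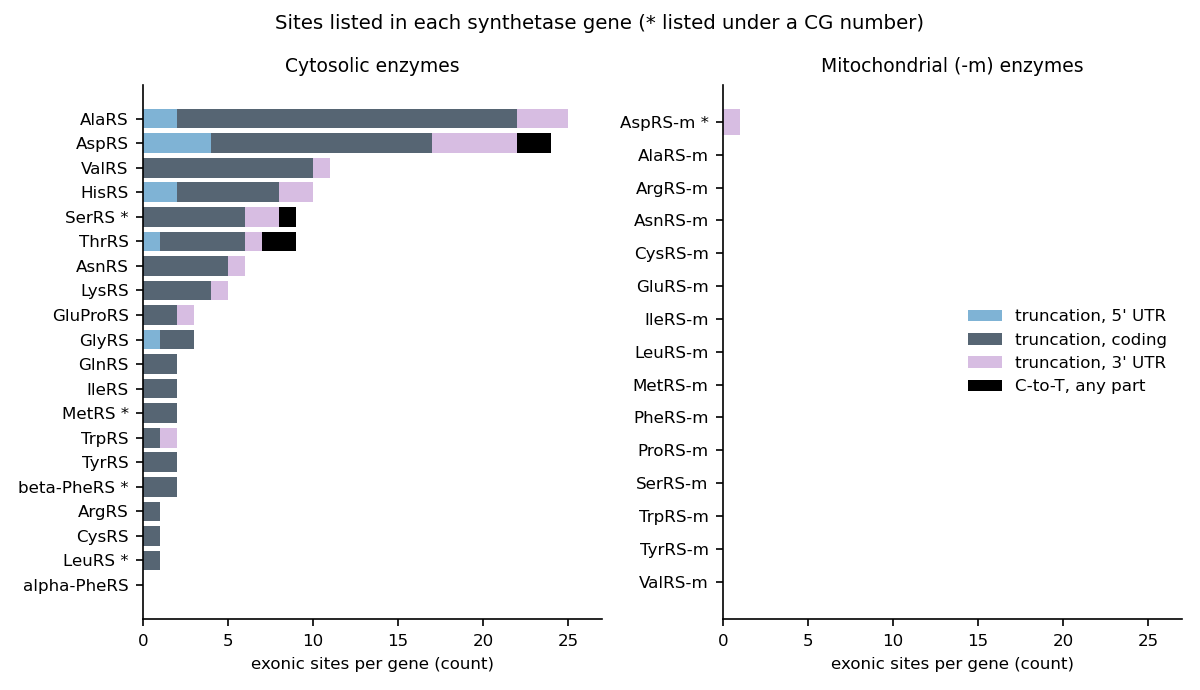
Number of exonic sites (horizontal axis) listed in each annotated synthetase gene (vertical axis) of the cytosol (left) and of mitochondria (right), with truncations coloured by part of the mRNA, C-to-T sites in black and an asterisk on genes listed under a CG number. AlaRS and AspRS lead with 25 and 24 sites, and the mitochondrial genes are empty but for 1 truncation in AspRS-m.

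Sites were shared out unevenly among the 15 named genes. AlaRS (alanyl-tRNA synthetase, chr2L:8378262-8381764, minus strand) held 25 and AspRS (aspartyl-tRNA synthetase, chr2R:12877004-12883168, plus strand) held 24, together 46.2% of the 106 exonic sites. They were followed by ValRS with 11, HisRS with 10, ThrRS with 9, AsnRS with 6 and LysRS with 5. GlyRS and GluProRS, the fused glutamyl-prolyl enzyme, had 3 each. GlnRS, IleRS, TrpRS and TyrRS had 2 each, and ArgRS and CysRS 1 each. Per length AspRS was the denser of the leading pair, with 10.6 sites per kb against 7.60 in AlaRS, and the next among the named genes were HisRS with 3.49, ValRS with 3.22 and ThrRS with 3.11. SerRS, listed under a CG number, had 9 sites or 4.71 per kb. These densities stand beside 0.737 sites per kb over all protein-coding genes, most of which had no site. Genes with any site had a median of 3 sites and a median density of 1.27 per kb. ArgRS, CysRS, GlnRS, GluProRS, GlyRS, IleRS, TrpRS and TyrRS lay below that density, and the other named genes lay above it. AlaRS ranked 182 and AspRS 207 among 3807 genes by number of sites, so neither stood at the top of the whole list.

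The more often supported truncations were spread over fewer genes. Truncations of any support were found in 15 of the 15 named genes, where the background was 27.2% of all protein-coding genes, but the rule could only name genes that have a listed site, so that count carries no information. The other counts are therefore read against genes that have a site themselves. A truncation shared by all 4 IPs was found in 11 of the 15, against 55.0% of the 3802 genes with an exonic truncation (15.0% of all protein-coding genes). ArgRS, GlnRS, TrpRS and TyrRS had none. C-to-T sites were found in 2 of the 15, AspRS and ThrRS, against 34.1% of the 3807 genes with a site of either list (9.31% of all protein-coding genes).

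The division by class was made after the values had been seen. The 10 cytosolic class II genes held 93 sites, 88 truncations and 5 C-to-T sites, or 3.86 per kb. The 9 class I genes held 24 truncations and no C-to-T site, or 0.954 per kb; GluProRS joins both classes and was left out. The median was 7.5 sites per class II gene and 2 per class I gene. AlaRS and AspRS are both class II, and without them the other 8 class II genes still held 44 sites, or 2.38 per kb. Class I had 1 gene with many sites, ValRS. In the 5' UTR lay 0 of the 24 class I truncations (interval 0 to 13.8%) and 10 of the 88 in class II (11.4%), in 5 genes. The class I interval holds the class II share, so these counts cannot tell whether the classes differ. Sites of the same gene are not independent, which the interval ignores. Over all exonic truncations the share was 40.0%. AlaRS held 2 of the 10 and AspRS 4. The null height differed between the classes too, with a median PH0 of 0.619 in class I and 1.33 in class II, and its part in the difference was not tested.

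The C-to-T sites were few, and they lay in ThrRS, AspRS and, in the wider set, SerRS. Here k counts the unique tags that cover a position, averaged over the IPs that share it, and m counts those that carry the change. Conversion is the listed percent, averaged over the aligners, and can differ a little from the averaged m over the averaged k. Intervals are Wilson 95% intervals computed from the averaged m and k. They cover only counting error at that averaged depth, which is not the total over the IPs, and are not centred exactly on the printed percent. ThrRS (threonyl-tRNA synthetase, chr2L:12103751-12107170, plus strand) had the site with the most converted tags, at position 12103825 in the 5' UTR, 70 nt before the start codon, in exon 1 and in 3 of its 4 transcripts. It was shared by 3 IPs. There 7.33 of 106 tags were converted, or 6.71% (3.43 to 13.4%). By aligner the share was 7.53% with Novoalign (m = 11), 5.37% with STAR (m = 4) and 7.22% with BWA (m = 7), so the 3 aligners differed more in tags than in share. An A at the base just upstream, 12103824, carried a truncation of PH 20.1 in 3 IPs, 24.3 times its null height. A C-to-T site with such a truncation at A exactly 1 nt upstream is called paired, the arrangement in which both lists point to the same A.

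The second ThrRS site had the highest conversion of the group. It lay in the coding sequence at 12105330, in the middle base of codon 271 and in all 4 transcripts, with 6.44 of 52.6 tags converted, or 12.5% (5.89 to 23.8%), in 3 IPs. The aligners gave 13.2%, 11.5% and 12.7%. It had no truncation within 3 nt and was unpaired.

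Both AspRS sites lay in the 3' UTR and had low conversion. At 12882929, 27 nt past the coding end, 6.75 of 317 tags were converted, or 2.16% (1.02 to 4.38%), in 2 IPs, without a partner. At 12883054, 152 nt past it, 5 of 199.5 tags were converted, or 2.52% (1.08 to 5.73%), also in 2 IPs and with Novoalign alone. The latter site was paired with a truncation at A at 12883053 that all 4 IPs and all 3 aligners gave, with PH 23.6. This stretch also lies in an exon of the antisense noncoding RNA asRNA:CR45141 on the opposite strand.

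SerRS had 1 C-to-T site at chr2L:3035533, minus strand, in the 3' UTR. There 6 of 89.2 tags were converted, or 6.68% (3.12 to 13.9%), in 3 IPs. A truncation lay at 3035532, the next base along the mRNA, and it was at T, so this site was not paired. None of the 5 C-to-T sites was shared by 4 IPs, where 35.0% of the whole exonic C-to-T list was.

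Against the whole list these sites were shallow. The 4 sites of the named genes had a median k of 153 and a median m of 6.60, where all 5895 exonic C-to-T sites had 282 and 8.25. The median conversion was 4.61% against 3.35%. By m they ranked between 3707 and 5508 of 5895. With 4 sites, their split over the parts (1 in the 5' UTR, 1 in the coding sequence and 2 in the 3' UTR) says little, since the interval of a share of 1 in 4 runs from 4.56 to 69.9%; over all sites 62.3% lay in the 5' UTR.

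Most truncations lay in the coding sequence. Of the 102, 76 were coding (74.5%, 65.3 to 82.0%), 10 were in the 5' UTR (9.80%, 5.41 to 17.1%) and 16 in the 3' UTR (15.7%, 9.89 to 24.0%). Over all 19715 exonic truncations the shares were 45.9% coding, 40.0% 5' UTR and 13.9% 3' UTR. The intervals for the 5' UTR and the coding sequence do not reach the values over all genes, and that for the 3' UTR does. Sites of the same gene are not independent, so these intervals are too narrow as a statement about genes. A 5' UTR truncation was found in 5 of the 15 genes, AlaRS, AspRS, GlyRS, HisRS and ThrRS, against 61.0% of the genes with an exonic truncation (16.6% of all protein-coding genes).

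Synthetase mRNAs are long in coding sequence and short in UTR, and the same counts per kb read differently. Coding sequence made up 84.8% of the length of the 15 genes, against 61.4% in the 3802 genes with a truncation. The 15 genes had 2.93 truncations per kb of 5' UTR where those genes had 3.83, 2.15 per kb of coding sequence where they had 1.08, and 5.47 per kb of 3' UTR where they had 0.856. Set against length, then, the part with the highest density was the 3' UTR in the synthetase genes and the 5' UTR in the genes at large. AspRS and AlaRS supplied 8 of the 16 3' UTR truncations.

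**Figure D2:**
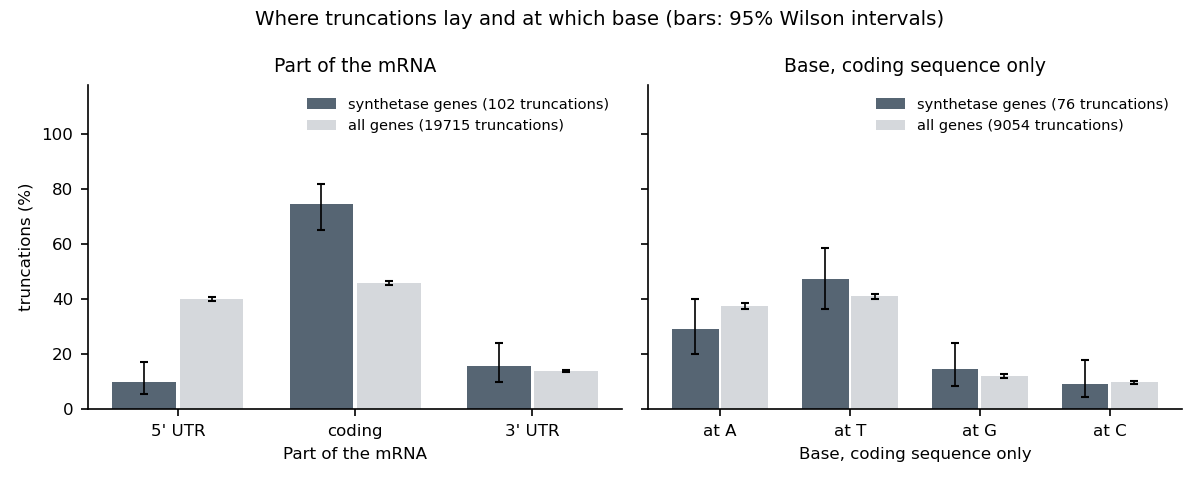
Share of truncations (percent, vertical axes) by part of the mRNA, left, and by base within the coding sequence, right, for the 15 synthetase genes and for all genes; lines are Wilson 95% intervals, for counting error only. The synthetase bar is higher in the coding sequence (74.5 against 45.9%) and lower in the 5' UTR (9.80 against 40.0%), and the intervals of the bases overlap the values over all genes.

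A was the base in 35 of 102 (34.3%, 25.8 to 43.9%) against 52.1% over all genes, T in 46 (45.1%) against 33.8%, G in 14 (13.7%) against 7.44%, and C in 7 (6.86%) against 6.72%. Within the coding sequence alone the distance was smaller, with A in 22 of 76 (28.9%, 19.96 to 39.96%) against 37.4% and T in 36 (47.4%) against 41.0%. In the 5' UTR 7 of 10 were at A, against 73.3%, and in the 3' UTR 6 of 16 (37.5%), against 39.7%. Within each part, then, the synthetase share at A lay within counting error of the share over all genes. A truncation at A was found in 10 of the 15 genes, against 81.2% of the genes with an exonic truncation (22.1% of all protein-coding genes).

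The share at A differed with support. Among the 26 truncations shared by all 4 IPs, 16 were at A (61.5%, 42.5 to 77.6%), against 65.9% over all genes. Among the 28 in 3 IPs only 4 were at A (14.3%, 5.70 to 31.5%), against 52.9%, and among the 48 in 2 IPs 15 were (31.3%, 19.9 to 45.3%), against 42.8%. The interval holds the value over all genes for 4 IPs and for 2 IPs, and lies below it for 3 IPs. Part and support were not separated here. A C-to-T site directly followed 2 of the 35 truncations at A (5.71%, 1.58 to 18.6%), where over all genes it followed 19.8%.

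With each coding sequence cut into 3 equal lengths, 34 of 76 lay in the first (44.7%, 34.1 to 55.9%), 22 in the middle and 20 in the last, against 35.5% in the first over all genes, a value inside the interval. By codon position 59.2% were at base 1 (48.0 to 69.6%), 18.4% at base 2 and 22.4% at base 3, against 51.5, 19.8 and 28.7%, and the interval for base 1 holds the value over all genes. Truncations at T were at base 1 in 25 of 36 cases (69.4%, 53.1 to 82.0%), against 52.5% over all genes, and those at A in 12 of 22 (54.5%), against 54.9%.

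Apart from 1 site few truncations were tall, while the median height was near that over all genes. The 102 truncations had a median PH of 14.3 (quartiles 10.8 and 18.2), where all exonic truncations had 14.8 (10.5 and 23.9). Only 7 of the 102 exceeded 23.9, that upper quartile. In the coding sequence the median was 14.2 against 12.7, in the 5' UTR 14.5 against 18.6, and among truncations in 4 IPs 17.5 against 24.3. Relative to the null height the median was 12.7 times against 16.2 times. These medians rest largely on AlaRS and AspRS: without them the median PH was 11, that in the coding sequence 11.3 and that among truncations in 4 IPs 14.5, while the median ratio to the null height was 16.6.

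The exception was in LysRS (lysyl-tRNA synthetase, chrX:9606363-9608884, minus strand). At position 9608198, in exon 2 of 4 and in all 3 transcripts, a truncation at A stood at a PH of 357.75 with Novoalign, 379.5 with STAR and 304.25 with BWA, shared by 4 IPs with each aligner. The A is the first base of codon 76, 225 nt past the start of the coding sequence. All 3 aligners placed it far above the rest of the gene, whose next truncation had a PH of 18.3.

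Its mean PH of 347 was 18.9 times that next value and 10.9 times the tallest truncation in any other named synthetase gene. It ranked 7 of all 19715 exonic truncations and 4 of the 9054 in coding sequence. The null height there was only 1.60, so that PH was 217 times PH0, the highest ratio in the whole list; the next genes were CG6254 with 156 and CG7488 with 153. The tallest site of the list, in the 5' UTR of Rip11, had a PH of 490 over a null height of 10.2. No C-to-T site was listed anywhere in LysRS. Of the 20 tallest exonic truncations 18 were at A and 7 had a C-to-T site directly after it; 6 of the 8 coding ones were at A, and 1 of those had such a neighbour.

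The other 4 LysRS truncations were at T, G and A. Coding truncations at T (9608151, PH 17.9) and at G (9608027, PH 17.7) lay in the same exon and were each shared by 3 IPs. One at A in exon 3 (9607197, codon 389, PH 18.3) was shared by 4. The last, at T in the 3' UTR (9606433), had a PH of 8 and came from STAR alone. The heights of 17.7 to 18.3 lie above the median PH of every other named gene except AspRS, and below the upper quartile of 23.9 over all exonic truncations.

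**Figure D3:**
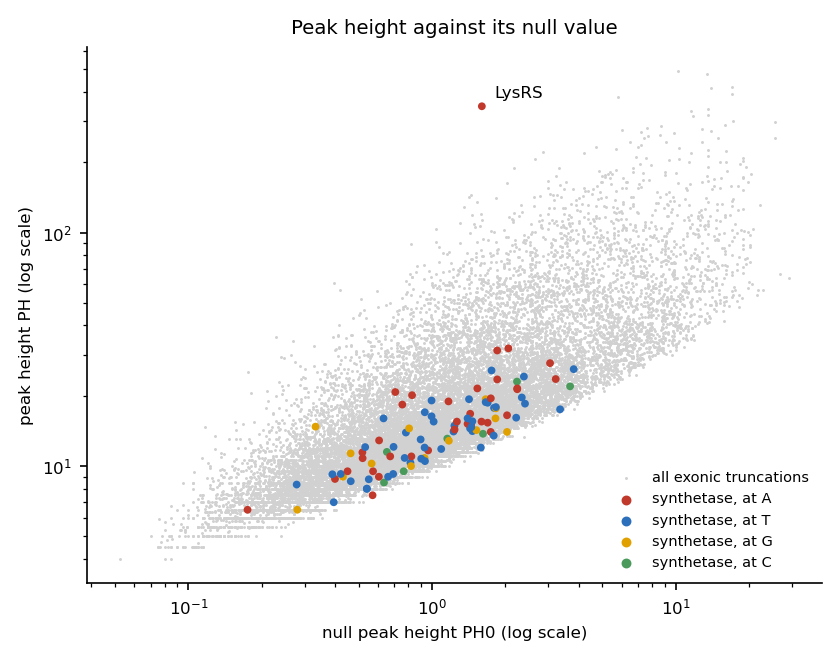
Peak height PH against null height PH0 (both on log axes) for every exonic truncation, in grey, with the sites of the 15 named synthetase genes coloured by base. The LysRS site at PH 347 and PH0 1.60 stands apart from the other synthetase sites, which lie within the cloud of all genes.

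AspRS had the tallest truncations after LysRS. They were at A in the 5' UTR (12880342, 59 nt before the start codon, PH 31.9), at A in the coding sequence (12882040, codon 314, PH 31.3) and at A in the 3' UTR (12882915, PH 27.6), each shared by 4 IPs and given by all 3 aligners. A truncation at T in the 3' UTR (12882968, PH 26) came from BWA alone in 2 IPs. The 22 truncations of the gene had a median PH of 21.4 and ranged from 13.5 to 31.9, all above the median of HisRS (10.5) and of ValRS (10.8). The null height in AspRS was the highest of the named genes as well, with a median of 2.22, and its median ratio of 9.30 was the lowest. Of the 22, 11 were at A and 8 at T, 13 were coding, 4 in the 5' UTR and 5 in the 3' UTR. The authors labelled the 5' UTR positions 12880294 and 12880342 as 3' UTR; the annotation used here places them before the start codon.

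AlaRS showed many sites of nearly the same height. Its 25 truncations had PH between 6.5 and 21.5 with a median of 15.2, and 20 of them were coding. T was the base at 12, A at 7, G at 4 and C at 2. Only 5 were shared by all 4 IPs. The tallest, at A in the 3' UTR (8378407, PH 21.5), was among them, as were coding sites at T (8378481, codon 947, PH 19.3; 8380674, codon 257, PH 14.9) and at A (8379839, codon 494, PH 16.8; 8380863, codon 194, PH 15.5). A site at T lay at the last base before the start codon (8381443, PH 14.7, 3 IPs). No C-to-T site accompanied any of them. Of the 140 genes with at least 20 exonic truncations, 6 (4.29%) had no C-to-T site, and AlaRS was 1 of them; the median in those genes was 6. The 5' UTR held 8% of the AlaRS truncations and 18.2% of those in AspRS, against a median of 19.0% in the 140 genes.

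**Figure D4:**
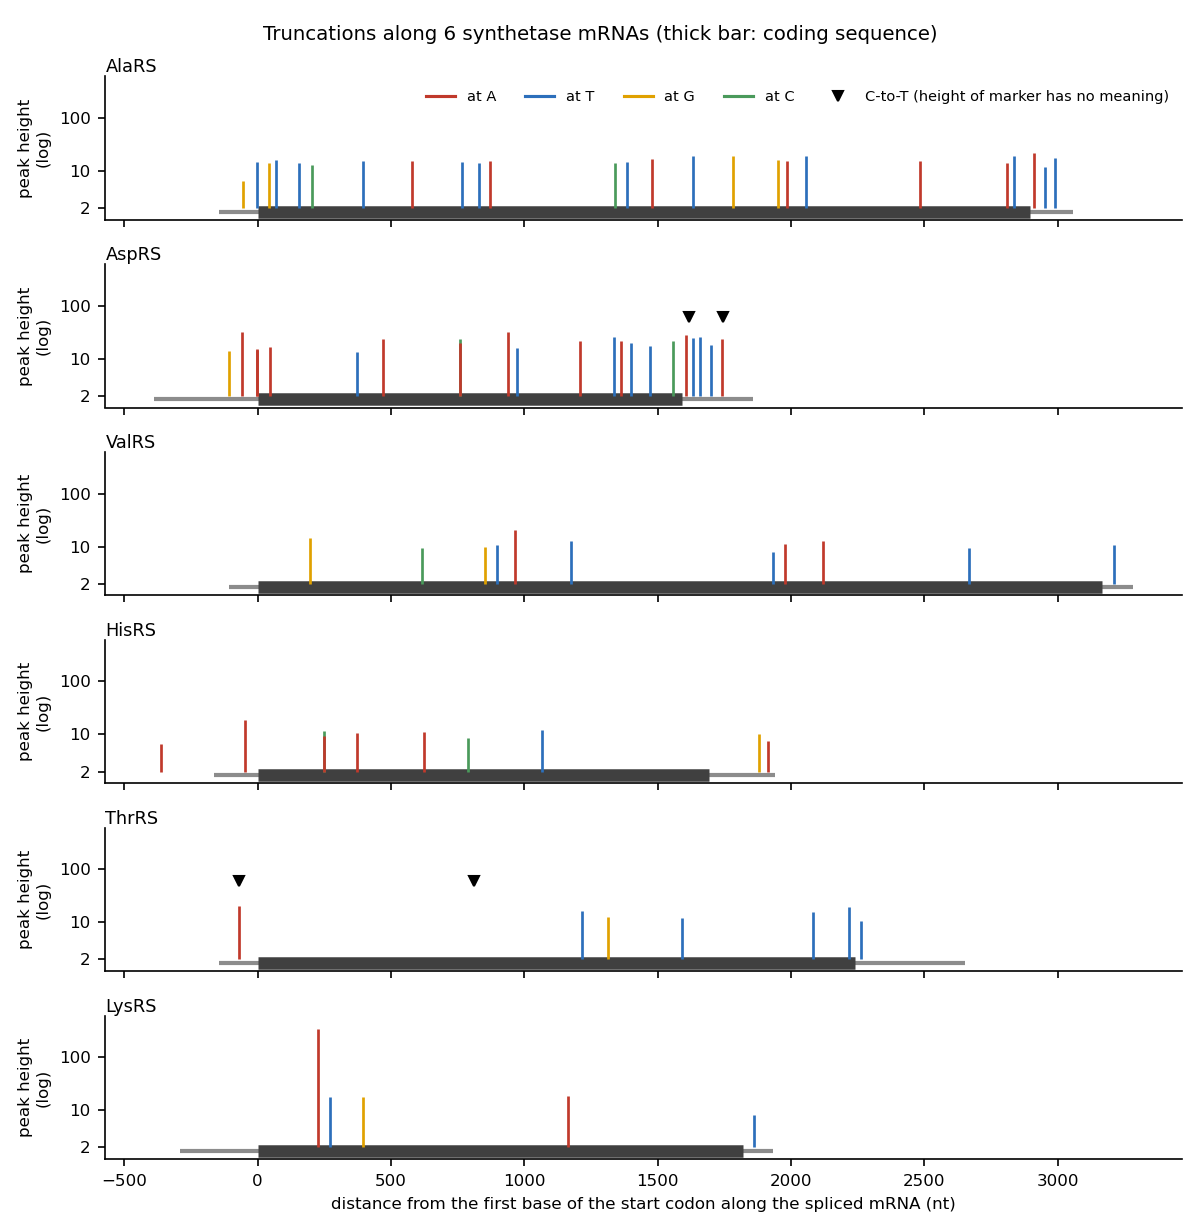
Truncations along the spliced mRNAs of 6 synthetase genes; the horizontal axis is the distance from the start codon in nt, the height of a line is PH on a log axis, and triangles mark C-to-T sites. AlaRS is filled with sites of similar height, LysRS has 1 site of PH 347, and the HisRS site 363 nt before the start lies outside the drawn mRNA because it belongs to another transcript.

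ValRS (valyl-tRNA synthetase, chr2R:13198850-13202709, plus strand) led class I with 11 truncations, 10 of them coding and 1 in the 3' UTR. Its tallest was at A in codon 323 (13200174, PH 20.8, 4 IPs). Those at G in codon 67 (13199348, PH 14.5) and at A in codon 708 (13201485, PH 12.9) were also shared by 4 IPs. The remaining 8 had PH between 8 and 13 and were shared by 2 IPs.

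HisRS (histidyl-tRNA synthetase, chrX:18515428-18520445, plus strand) had 10 truncations, 6 of them at A, the highest count at A after AspRS and AlaRS. The tallest lay in the 5' UTR at 18515542 with a PH of 18.9 in 4 IPs, 48 nt before the start codon. That position is also in an exon of Bx on the same strand, so its reads cannot be assigned to HisRS alone. Another 5' UTR site, at 18516015, belongs to 1 of 4 transcripts, had a PH of 6.5 and came from BWA alone. The other 8 had PH between 7.5 and 12.1.

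ThrRS had 7 truncations besides its 2 C-to-T sites. The paired A in the 5' UTR was its tallest, and 5 of the other 6 were at T. Those shared by 4 IPs were coding, at T in codon 406 (12105736, PH 16.3) and at T in codon 740 near the end (12106736, PH 19.1). AsnRS (asparaginyl-tRNA synthetase) had 6 with PH between 10.3 and 17, of which 5 were coding and all within the first of the 3 equal lengths of its coding sequence. The 1 shared by 4 IPs was at T in codon 15 (chr2L:19131675, minus strand, PH 13.9).

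The remaining genes had 1 to 3 low truncations each. GluProRS had coding sites at A and T (PH 9.5 and 8.61) and an A in the 3' UTR shared by 4 IPs (8.81). GlyRS had a site at A (chr3L:15095322, plus strand, PH 11.4, 3 IPs) that is 5' UTR in 1 transcript and codon 21 in the others, and coding sites at T with PH 8.78 and 9.25. CysRS had 1 site, at G in codon 357 (chr2R:16144427, PH 14.8, 4 IPs), 44.4 times its null height. ArgRS (8.33), GlnRS (9 and 11.3), IleRS (9.22 and 12.1), TrpRS (9 at both) and TyrRS (7 and 16) complete the 15. CysRS and GlnRS had no site at A or T.

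**Figure D5:**
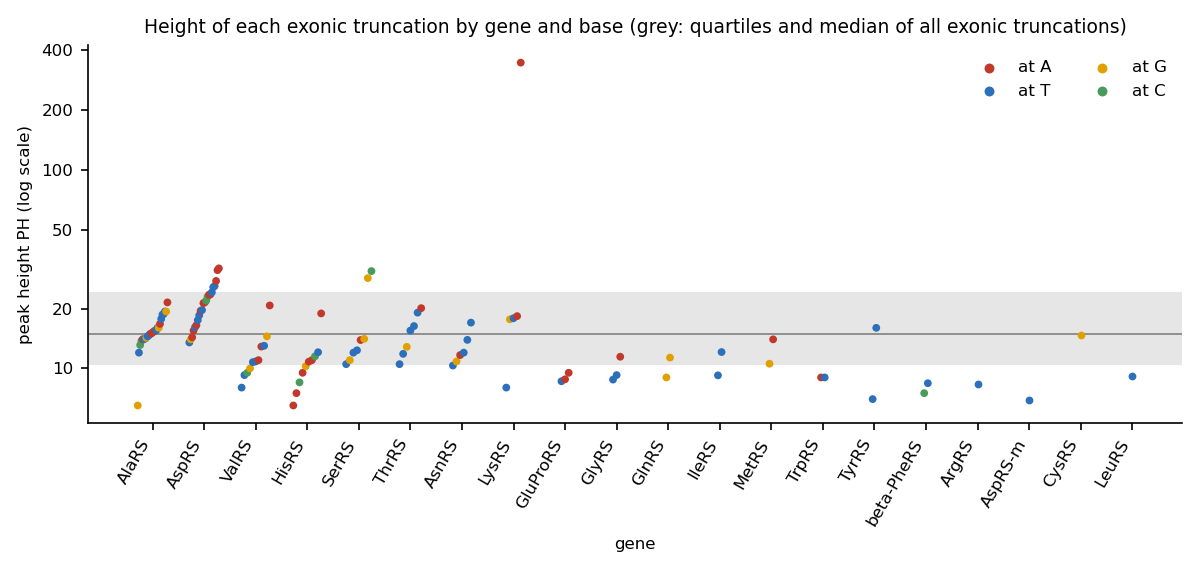
Peak height PH (log axis) of every exonic truncation by synthetase gene, coloured by base; the grey band spans the quartiles of all exonic truncations (10.5 and 23.9) and the line is their median (14.8). LysRS holds 1 point at 347, AspRS most of the points near or above the band's top, and the genes with 3 or fewer sites lie mostly at or below the line.

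Among the genes listed under CG numbers SerRS stood out for base. Of its 8 truncations the tallest were at C in codon 427 (chr2L:3035872, PH 30.9, 34.8 times the null) and at G in codon 69 (3036944, PH 28.5, 32.1 times), each shared by 4 IPs and all 3 aligners. A further G in codon 29 (3037066, PH 14.1) was also in 4 IPs. Only 1 of the 8 was at A. MetRS had sites at A (PH 14) and G (10.6), beta-PheRS at T (8.42) and C (7.5), and LeuRS at T (9.17).

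Many positions depended on the aligner. Of the 102 truncations, 59 were given by all 3 aligners, 57.8% against 59.7% over all genes. A further 17 were given by 2 aligners and 26 (25.5%) by 1. In AspRS, 12880787 came from BWA alone and the adjoining 12880788 from STAR alone, and 12881859 from Novoalign alone beside 12881860 from all 3. In HisRS, 18517841 came from Novoalign and BWA and 18517843 from STAR. The 3 intronic truncations, in ThrRS (12104488, PH 28), AspRS (12882739, PH 21.3) and TrpRS (9266530, PH 14), lay 4, 3 and 1 nt outside an exon and were given by Novoalign alone. Over all 1830 intronic truncations 33.2% shared both features, and of the exonic ones 7.94% came from Novoalign alone.

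In a separate list of 14 genes crc held most of the sites. The list is mixed: some of its genes act in tRNA charging or in the response to uncharged tRNA, and others, such as RNaseZ, do not. Of the 14 genes 13 were found in the annotation, all but Mtfmt. An exonic site was listed in 5, where the background over all genes was 27.3%. Together they held 27 sites, or 1.05 per kb, and 7 without crc, or 0.312 per kb, beside 0.737 over all genes. crc, the fly ATF4 that is translated more when uncharged tRNA activates the kinase Gcn2, had 20, of which 2 were C-to-T sites and 18 truncations with a tallest PH of 38.2. RNaseZ, which trims the 3' end of tRNA precursors, had 3, including a paired C-to-T site in the 5' UTR. GatA, a subunit of the amidotransferase that makes glutaminyl-tRNA in mitochondria, had 2. The scaffold protein AIMP2 and Slimp, a mitochondrial relative of SerRS, had 1 each. None was listed in AIMP1, AIMP3, GatB, GatC, Dtd, Gcn2, Elp3 or Tgs1.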

How the data were processed

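Sites came from 4 m6A IPs of S2R+ cells; the non-crosslinked IP and the input give no site values here, so nothing was compared with a background library. The submitters' processing notes name the build dm6 and, with no role stated, STAR 2.4.2a, BWA, Novoalign, Bowtie 1.1.2 and cutadapt 1.8. Per the column legend deposited with the lists, the authors called sites with CTK from 3 aligners and listed those shared by 2, 3 or 4 IPs. The deposited values are, for C-to-T sites, counts of unique and converted tags and their percent, and, for truncations, PH, PH0, the p-value and the base. The sources used here state neither how PH was combined over IPs nor any filter against the controls. The listed p-values were not used, and no test was run. Whether the IPs came from separate cultures is not stated. Depth is known only as k.

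The mean over the aligners giving a site was used, and the highest number of IPs. Positions are 1-based, dm6, and were placed on same-strand exons of Ensembl release 115; where isoforms differ, 5' UTR came before coding sequence and then 3' UTR. Every named gene was accounted for, with sites given in full for genes with many sites, mitochondrial genes, paired sites and the strongest sites. Members and gene lists were chosen with earlier results of these data known. Computations used Python 3.11.15, pandas 2.3.3, numpy 2.4.6, scipy 1.17.1 and matplotlib 3.10.9, and the functions were tested on simulated data. Genome sequence was not used here, so no site sequence or motif is shown.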

Additional observations from a re-analysis of the deposited data

How the results depend on the processing

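The limits are those of combined lists: there is no spread over IPs, coverage is known only at C-to-T sites, and mRNA level was not used here. Leaving out each IP was not run, because the lists hold no value per IP. No paired analysis was possible because the listed values are combined over the IPs and no test between groups was run.

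Of 109 values under 13 alternatives, 92 stayed within their interval (for a count of genes, within 1.5 times) and 17 moved. The alternatives reuse largely the same sites, and intervals resting on the 4 C-to-T sites are wide, so this tally is no measure of robustness. The median conversion of 4.61% ran from 2.34 to 9.58% and counted as unmoved, since its interval was the range of the 4 sites (2.16 to 12.5%). Of the alternatives 3 were chosen after seeing the data. They were adding the cytosolic genes under CG numbers, leaving out AlaRS and AspRS, and leaving out sites in a same-strand exon of another gene. The AspRS sites opposite asRNA:CR45141 were kept. With sites in 4 IPs only, genes with a C-to-T site went from 2 to 0, mitochondrial genes with a truncation from 1 to 0, the share at A from 34.3 to 61.5% and the median PH from 14.3 to 17.5. With all 3 aligners required, C-to-T genes were 1, the C-to-T share in the 3' UTR was 0% and the median PH 16. With sites at or above the median score of their list, C-to-T genes were 0, truncation genes 9, mitochondrial genes 0 and the median PH 18.4. Without the gene with the most sites in each list the C-to-T share in the 3' UTR was 0%. That gene was AlaRS for truncations and AspRS for C-to-T sites. ThrRS had as many C-to-T sites as AspRS, 2 each, and none in the 3' UTR, so this value depends on which was left out. Without enzymes lacking an -m gene, C-to-T genes were 1 and C-to-T shares 0% in the 5' UTR, 0% in coding sequence and 100% in the 3' UTR. Without AlaRS and AspRS the median PH was 11. The causes were not tested beyond the smaller number of sites each alternative leaves. Across all alternatives run, the truncation share was 72.7 to 81.4% coding, 7.27 to 10.4% in the 5' UTR and 10.2 to 19.2% in the 3' UTR.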
